A study of Drosophila melanogaster with 2 samples.

Results

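Single, non-divergent promoters held 517 of the 1449 Poxn-eGFP peaks on the chromosome arms (35.7%, 95% Wilson interval 33.3% to 38.2%) and 517 of the 821 peaks whose summit lay within 500 bp of an annotated transcription start site (TSS). A summit was kept when it lay within 500 bp of any annotated TSS. It was left out when a minus-strand and a plus-strand protein-coding TSS lay within that distance with the minus-strand TSS at the lower coordinate, an arrangement called head-to-head below, which took the other 304 promoter peaks. No peak signal entered this choice, apart from the authors' own threshold for listing a peak. The list held 1488 peaks in all, and the 517 are called single-promoter peaks.

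Chromatin came from whole Drosophila melanogaster embryos of a Poxn-GFP strain, collected between 0 and 24 h of age and sonicated to fragments of 200 to 800 bp. The strain carries an insertion that targets Poxn and expresses a Poxn-eGFP fusion. The labels disagree on the antibody: the descriptions give GFP as its target and the antibody entry gives Poxn. The group had 2 biological replicates. No untagged or input sample was analysed here, so no peak could be set against a control. Whole embryos mix all tissues and ages, so a peak in few cells and a weak peak in many cells cannot be told apart.

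A promoter is the DNA around the point where transcription of a gene begins. Its core can hold short elements such as the TATA box, the initiator, the DNA replication-related element (DRE) or the pyrimidine-rich initiator of ribosomal protein genes, and insect genomes often place genes back to back so that a pair of genes shares a short promoter region. Poxn encodes a paired-domain transcription factor known in Drosophila for specifying chemosensory bristles and for roles in the brain and appendages.

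The first 4 windows shown, all AT-rich, belong to the strongest peaks that met the rule for showing sequence, which allowed at most 30 exonic bases and did not admit every chromosome arm. Each line gives the summit base with 50 bases on either side, 5′ to 3′ on the strand of the gene, from the RefSeq assembly of the release that dm6 names. Capitals mark a match to any of the 15 words on either strand. CG14100 holds CGATA, part of the DRE, and Ugalt and ph-p each hold TCAGT, an initiator core, all 3 on the opposite strand, while amon holds none of the 15. The 4 windows are those of CG14100 at chr3L:19590565-19590665 on the minus strand, of Ugalt at chrX:2703829-2703929 on the minus strand, of ph-p at chrX:2137301-2137401 on the minus strand and of amon at chr3R:26714326-26714426 on the minus strand.
CG14100: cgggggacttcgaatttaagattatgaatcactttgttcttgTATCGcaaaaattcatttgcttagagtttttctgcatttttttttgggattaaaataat
Ugalt: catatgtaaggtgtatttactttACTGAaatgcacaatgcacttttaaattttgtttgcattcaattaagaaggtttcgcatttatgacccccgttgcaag
ph-p: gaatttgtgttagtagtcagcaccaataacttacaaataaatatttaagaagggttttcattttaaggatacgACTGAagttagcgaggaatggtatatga
amon: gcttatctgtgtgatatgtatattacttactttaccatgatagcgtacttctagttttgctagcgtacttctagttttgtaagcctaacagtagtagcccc
The GC content of these windows was 29.7% for CG14100, 33.7% for Ugalt, 31.7% for ph-p and 37.6% for amon.

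The next 4 windows show the strongest single-promoter peak under the same rule that held each of 4 core promoter words, again with matches to any of the 15 words in capitals. CG18549, at chr3R:12449114-12449214 on the plus strand, held TATAAA, the core of the TATA box, and also TAATTA, the core site of many homeodomain proteins. The window of eEF1gamma, at chr3R:29220090-29220190 on the plus strand, held TATCGATA, the DRE. The window of Best2, at chr3L:6256888-6256988 on the minus strand, held CATCNCTA, known as Motif 7 of Drosophila core promoters. The window of l(3)73Ah, at chr3L:16588150-16588250 on the plus strand, held GGTCACAC, known as Motif 1, on the opposite strand. Beside these words, CG18549 and Best2 held TCAGT, and eEF1gamma, Best2 and l(3)73Ah held CGATA. In eEF1gamma CGATA matched within the DRE on either strand and again directly after it.
CG18549: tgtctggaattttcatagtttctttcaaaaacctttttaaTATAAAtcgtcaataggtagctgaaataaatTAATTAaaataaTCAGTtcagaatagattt
eEF1gamma: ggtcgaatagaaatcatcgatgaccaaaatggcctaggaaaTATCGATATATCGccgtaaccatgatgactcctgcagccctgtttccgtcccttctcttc
Best2: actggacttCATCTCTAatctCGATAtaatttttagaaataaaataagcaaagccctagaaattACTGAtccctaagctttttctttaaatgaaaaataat
l(3)73Ah: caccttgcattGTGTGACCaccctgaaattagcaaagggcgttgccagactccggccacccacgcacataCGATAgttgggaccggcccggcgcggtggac
The peaks behind these 4 windows had signals of 400.4 at CG18549, 108.7 at eEF1gamma, 131.6 at Best2 and 67.4 at l(3)73Ah, so peaks with these words were not all among the strongest.

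Values below come from the authors' peak lists on dm6, in which signal is the authors' own enrichment value per peak, which can order peaks of the same list. The list of the pair of replicates is the main one. Replicate 1 alone gave 284 single-promoter peaks among 782 arm peaks and replicate 2 gave 371 among 958, and the spread between these lists is the error of each comparison. The pair list was made from the same alignments and is not independent of them. The number of reads per library is unknown. A count of 0 is given with the share that 3 counts of the total would make. Intervals on shares are Wilson intervals at 95% and cover counting error only, since neighbouring peaks are not independent. No p-value was computed.

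Single-promoter peaks lay upstream of the TSS in most cases. Of the 517 summits, 436 were upstream (84.3%, interval 80.95% to 87.2%) and 81 were at or downstream of the TSS. The share upstream was 89.1% in the list of replicate 1 and 86.5% in that of replicate 2. Among the 304 head-to-head peaks it was 81.6%, with 81.5% in replicate 1 and 82.2% in replicate 2, so the single-promoter share was the higher one in each list. The intervals of the 2 classes overlapped in the pair list, at 76.8% to 85.5% for head-to-head peaks. A head-to-head summit between its TSSs is upstream by construction, and this share is therefore not a like measure of position.

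Single-promoter summits were centred more than 100 bp upstream of the TSS. Their median position was -160 bp, with quartiles of -262 and -80 bp, and it was -175 bp in replicate 1 and -162 bp in replicate 2. Head-to-head summits had a median of -90 bp, with -94 bp in replicate 1 and -91 bp in replicate 2, so the classes differed by more than the replicates did. Here too the rule bears on the value, since a head-to-head summit has at least 2 TSSs within 500 bp and is measured from the closer one. The 50 bp bin with most single-promoter summits was -150 to -100 bp, with 92 of them (17.8%). The interval from -200 to -51 bp held 41.4% of single-promoter summits and 66.4% of head-to-head ones.

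**Figure D1:**
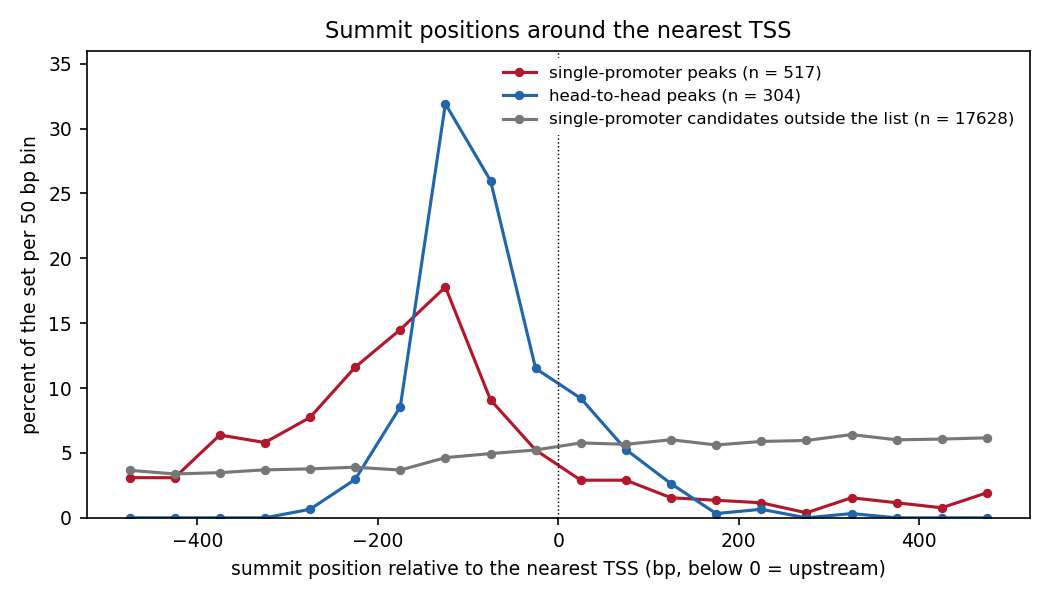
Share of summits in each 50 bp bin (vertical axis, percent of the set) by position relative to the nearest TSS (horizontal axis, bp, below 0 is upstream), for single-promoter peaks (red), head-to-head peaks (blue) and single-promoter candidates outside the list (grey). Single-promoter peaks reach 17.8% between -150 and -100 bp and trail to -500 bp, while no bin of the candidates outside the list holds over 6.42%.

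The authors' ranked list gave the background for these positions. It held 143270 candidates on the arms, of which 1.01% were in the peak list. Of the 18145 candidates at single promoters, 517 were in the list, or 2.85%, against 17.2% of 1766 head-to-head candidates, 0.848% of candidates beyond 500 bp and up to 2000 bp from a TSS and 0.364% of those over 2 kb away. A single-promoter candidate was thus listed more often than one away from promoters and less often than one at head-to-head promoters. The same order held in both replicates, with 2.03% at single promoters against 11.7% at head-to-head ones in replicate 1, and 2.82% against 18.1% in replicate 2.

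Within single promoters the share listed differed by the side of the TSS. Upstream candidates were listed in 436 of 7559 cases (5.77%, interval 5.27% to 6.32%) and candidates at or downstream of the TSS in 81 of 10586 (0.765%, interval 0.616% to 0.95%). In replicate 1 the shares were 4.34% upstream and 0.381% downstream, and in replicate 2 they were 5.62% and 0.671%. Candidates outside the list leaned the other way, with 40.4% upstream and a median position of +82 bp. The listed peaks, and not the candidates as a whole, were concentrated upstream.

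The signal of single-promoter peaks had a median of 85.7, with quartiles of 64.9 and 132.7 and a range of 2.69 to 1086. The median was 94.7 for head-to-head peaks, 80.3 for peaks beyond 500 bp and up to 2000 bp from a TSS and 70.3 for peaks over 2 kb away. Single promoters thus lay between head-to-head promoters and distal sites in median signal. The difference to head-to-head peaks was -9.01 in the pair list, -4.27 in replicate 1 and -3.4 in replicate 2. The difference to peaks over 2 kb away was 15.3 in the pair list, 7.7 in replicate 1 and 7.4 in replicate 2, with the same sign each time.

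These median differences are small beside the spread of the peaks. The quartiles of head-to-head peaks, 69.5 and 155.2, overlapped those of single-promoter peaks over most of their extent. Signal is on a larger scale in the pair list than in the replicate lists, because the pair value was close to the sum of the replicate values (median ratio 0.994, quartiles 0.966 and 1.02, over 496 single-promoter peaks with a value in both). Medians are therefore compared within a list and not across lists.

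**Figure D2:**
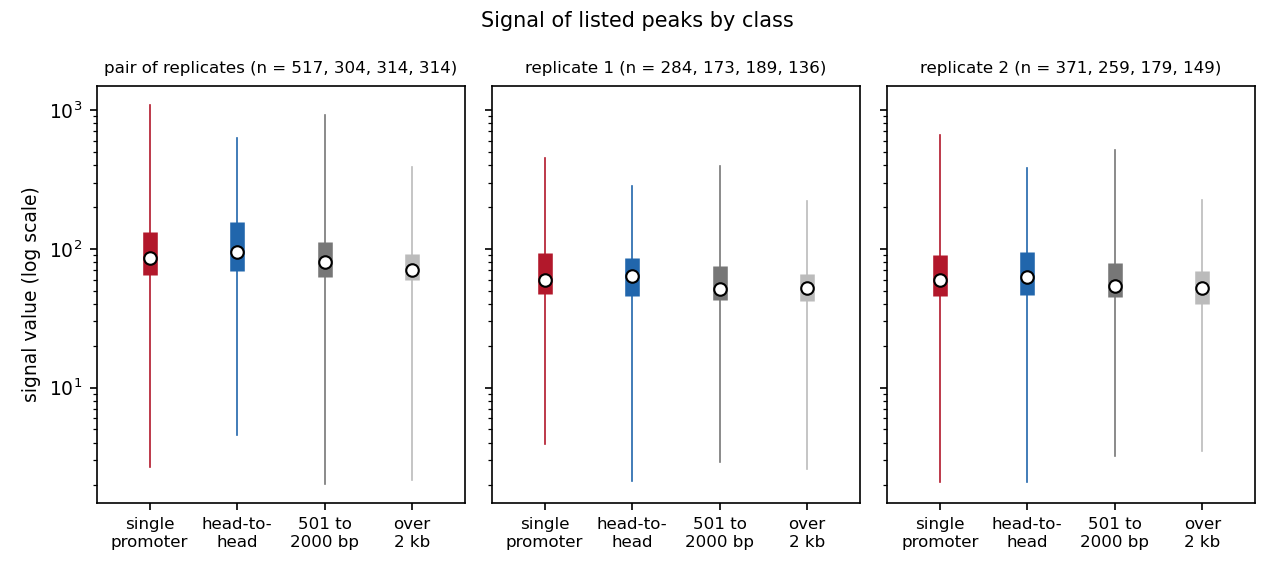
Signal value of listed peaks (vertical axis, log scale) for peaks at single promoters, at head-to-head promoters, up to 2000 bp from a TSS and over 2 kb away, in the list of the pair and of each replicate. White circles are medians, thick bars the quartiles and thin lines the full range. Single-promoter medians of 85.7, 59.5 and 59.2 lie just under the head-to-head ones in all 3 lists.

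Position and signal were loosely related. With the peaks in 4 bins of equal size by signal, 78.3% were upstream in the weakest bin, at signals up to 64.5, and 82.9%, 88.4% and 87.7% in the bins above it. Upstream peaks had a median signal of 88.7 and peaks at or downstream of the TSS one of 75.8 in the pair list. That order turned round in the replicate lists, where upstream medians were 59.2 and 59.1 in replicates 1 and 2 and downstream medians 62.4 in both. Signal on the 2 sides of the TSS can therefore not be ranked from these data.

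A small set of 13 single-promoter peaks stood apart, with signals of 2.69 to 15.2, while the next one was at 44.98. All 13 overlapped a stronger peak of the same list, and none of the other 504 did. Among them were a second peak at spi, which encodes an EGF receptor ligand, with a signal of 15.2 beside a first one of 162.0, and another at aru, with 2.94 beside 140.9 and 138.3. Without these 13 the share upstream was 84.5% and the median position -160 bp. The median signal difference to head-to-head peaks, again without overlapping weaker peaks, was -7.82.

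Of the single-promoter peaks, 226 overlapped a listed peak in both replicates (43.7%, interval 39.5% to 48%), and these had a median signal of 149.3. A further 53 were in the list of replicate 1 only and 122 in that of replicate 2 only, and 116 (22.4%) were in neither, with a median signal of 59.4. Presence in the replicate lists thus went with signal, in part by construction, since the pair value was close to the sum of the replicate values. Head-to-head peaks were in both lists in 49.3% of cases (interval 43.8% to 54.9%), which overlaps the single-promoter interval, and peaks over 2 kb away in 25.2%.

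Across the 496 single-promoter peaks with a candidate in each replicate, signal in replicate 1 and replicate 2 had a Spearman correlation of 0.655 and a Pearson correlation of 0.769 on the log2 scale. The points share the list's own selection for similar ranks and a further file that both replicates used, so the value describes the listed peaks only. Head-to-head peaks had a Spearman correlation of 0.716 and peaks over 2 kb away one of 0.433. The conservative list of the authors held a peak with the same start and end for 438 of the 517 (84.7%).

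**Figure D3:**
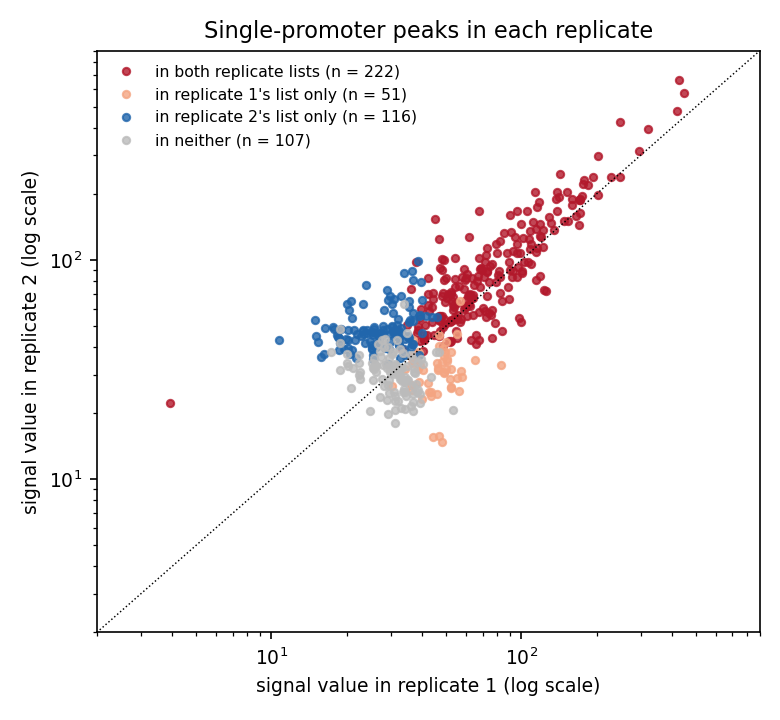
Signal value of each single-promoter peak in replicate 1 (horizontal, log scale) and replicate 2 (vertical, log scale), for the 496 peaks with a candidate in both, coloured by the replicate lists they overlap. The dotted line marks equal values, and the peaks found in both lists fill the upper right, up to 449.3 in replicate 1 at mRpL41 and 663 in replicate 2 at CG14100, apart from a weak overlapping peak at spi with 3.91 and 22.4.

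The strongest single-promoter peak was at CG14100, 91 bp upstream of the TSS. It had a signal of 427.9 in replicate 1 and 663 in replicate 2, and 1086 in the pair list. The peak at mRpL41, a gene for a protein of the large subunit of the mitochondrial ribosome, was next, with 449.3 in replicate 1, 579.95 in replicate 2 and 1020.0 in the pair list. All 15 strongest were in both replicate lists, with values of 143.3 to 449.3 in replicate 1 and 196.9 to 663 in replicate 2, so none of them rests on 1 library.

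Other protein-coding genes among the 15 also had similar values in both replicates. Ugalt, a UDP-galactose transporter, had a summit 27 bp upstream and signals of 418.7 in replicate 1 and 479.7 in replicate 2. Fkbp14, a prolyl isomerase of the endoplasmic reticulum, had an upstream summit and signals of 248.96 and 240.2 in replicates 1 and 2. TRAM, which assists the transfer of proteins across the endoplasmic reticulum membrane, had a summit 88 bp upstream and signals of 176.2 and 221.0. Each value lay above the medians over single-promoter peaks in its replicate, 41.7 in replicate 1 and 48.1 in replicate 2. The choice of these genes by pair signal made this all but certain. The gene amon, the Drosophila prohormone convertase of neuroendocrine cells, had a summit 217 bp upstream and signals of 193.5 and 237.9.

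The list of 15 also held genes for regulators of transcription. The first, ph-p, a gene of the Polycomb group of repressors, had a summit 496 bp upstream of its nearest TSS, in an intron. Its signals were 295.6 in replicate 1 and 313.5 in replicate 2. A further peak, with 171.5 and 163.8, lay 481 bp downstream of another TSS of ph-p. These peaks therefore do not flank the same TSS, and on the strand of the gene the further peak lies upstream of the first. Sox14, an HMG-box transcription factor gene, had a summit 245 bp upstream with 143.3 and 247.4. The remaining genes among the 15 were PNPase, which encodes a mitochondrial RNA-degrading enzyme, GstE13, a glutathione S-transferase gene, the noncoding genes lncRNA:CR44619 and asRNA:CR45928, and CG1888, CG17896 and CG18549. Their pair signals lay between 400.4 and 707.3.

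Downstream summits were fewer but included strong ones. The strongest was the peak at asRNA:CR45928, 87 bp downstream of its TSS, with 248.2 in replicate 1 and 423.9 in replicate 2. The same summit lay 116 bp upstream of a TSS of eIF6, a gene for a ribosome assembly and translation factor, so its side depends on which of these genes is taken. GstE13 followed, with a summit 66 bp downstream in the 5′ UTR and signals of 203.4 and 298.7. PNPase had a summit 72 bp downstream in the 5′ UTR, with 228.6 and 237.9. The downstream peak of ph-p, CG18622 at 205 bp and lncRNA:CR44149 at 57 bp completed the 6 strongest, with pair signals of 335.7, 333.8 and 221.2.

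The gene at the nearest TSS was protein-coding for 476 single-promoter peaks (92.1%) and a noncoding RNA gene for 40 (7.74%). The last was at tRNA:Tyr-GTA-1-8, a tyrosine tRNA gene, with a summit 214 bp upstream and signals of 66.1 in replicate 1 and 41.2 in replicate 2. Against their own candidates, protein-coding TSSs were listed in 3.22% of 14796 cases (interval 2.95% to 3.51%) and noncoding RNA TSSs in 1.4% of 2859 (interval 1.03% to 1.9%). The order was the same in replicate 1, at 2.22% and 1.34%, and in replicate 2, at 3.14% and 1.59%.

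At protein-coding genes the median signal was 83.4 and 410 of 476 summits were upstream. At noncoding RNA genes the median signal was 94.8 and 25 of 40 summits were upstream, so downstream summits took a larger part there. No single-promoter peak had a gene annotated as snoRNA or pseudogene nearest to it, out of 127 and 178 candidates, which by the limit of 3 counts allows a share of up to 2.36% and 1.69%. The conservative list did hold 1 at a gene of type snoRNA, and in the main list snoRNA:Or-ACA9, with a signal of 50.2, counts under noncoding RNA as the annotation types it. The strongest at a noncoding gene was lncRNA:CR44619, with a summit 450 bp upstream and signals of 321.3 in replicate 1 and 396.6 in replicate 2.

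Most single-promoter peaks had TSSs of only 1 gene within 500 bp, which was so for 468 of 517 (90.5%). In 25 cases several genes on 1 strand had a TSS there, in 18 a noncoding gene and another gene faced away from each other, and in 6 the genes faced each other. The 18 are divergent once noncoding genes are counted, although the rule, which looks at protein-coding TSSs, keeps them. The share of candidates in the list was 2.79% for promoters of 1 gene, 3.37% for several genes on 1 strand, 4.64% for those facing away with a noncoding gene and 2.63% for those facing each other. All 4 shares were below the 17.2% of head-to-head candidates, the highest of them being that of promoters facing away with a noncoding gene.

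Named peaks of these arrangements varied in strength. mRpL41, elav and Sesn were the strongest where several genes on 1 strand had a TSS nearby. elav, which encodes the RNA-binding protein used as a marker of neurons, had a summit 286 bp upstream with 117.4 in replicate 1 and 184.0 in replicate 2. Sesn, the sestrin gene, had 122.6 and 114.6. Where genes faced each other the strongest was CG31808, with 58.7 and 59.5, followed by Sqor, a sulfide-oxidising enzyme of mitochondria, with 40.7 and 45.3. The next of these, oys, which encodes a lysophospholipid acyltransferase, had 23.2 and 48.1 and was in the list of replicate 2 only. The medians of these 6 and of the 18 with a noncoding gene were 57.1 and 84.4, against 86.0 for promoters of 1 gene.

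Single-promoter summits lay outside exons in most cases. Space between genes held 232 of them (44.9%), against 20% of single-promoter candidates outside the list, and introns 193 (37.3%), against 21.6%. Coding exons held 4 (0.774%), against 31.1% of candidates, and 5′ UTRs 58 (11.2%), against 16.5%. Sequence downstream of a TSS is transcribed by definition, so the sides are also given apart. Among upstream summits alone, 53% were between genes against 48.2% of upstream candidates, 38.3% in introns against 31.4%, and none of 436 in coding exons against 10.1%. Among summits at or downstream of the TSS, 4 of 81 were in coding exons (4.94%), against 45.3% of candidates.

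The neighbouring gene upstream was described for the 476 peaks at protein-coding genes. It lay on the same strand for 257 (53.99%), against 45.3% of candidates outside the list, and on the opposite strand for 173 (36.3%), against 39.5%. In 46 cases (9.66%) the TSS lay inside another gene, against 15.2% of candidates. The median distance to a same-strand neighbour was 1089 bp for peaks, and that to a neighbour on the other strand 2055 bp, against 2030 bp for candidates. The peak was at the outermost TSS of its gene for 293 (61.6%), against 70% of candidates, and at an inner TSS for 183 (38.4%), against 30%.

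Peaks were spread over 488 nearest genes, of which 463 had 1 single-promoter peak, 21 had 2 and 4 had 3. The 4 were Rtnl1, which encodes a reticulon of the endoplasmic reticulum, Ptpmeg2, a protein tyrosine phosphatase gene, aru and CG5910. At Rtnl1 the summits lay -262, -197 and -279 bp from their nearest TSS, with pair signals of 298.0, 166.5 and 87.99. At dnc, the cAMP phosphodiesterase gene known from learning mutants, the 2 peaks had signals of 258.3 and 164.2. The arms 2L, 2R, 3L, 3R and X held between 100 and 108 single-promoter peaks each, and arms 4 and Y none. The X held 20.9% of peaks, against 15.7% of candidates, and 3R held 19.7%, against 25.5%.

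The shares of ribosomal protein and translation factor genes with a single-promoter peak were above the share of all genes in the pair list. The background was the 9074 protein-coding genes with a single-promoter candidate, of which 470 had a listed single-promoter peak, or 5.18%. Cytoplasmic ribosomal protein genes had one in 11 of 58 cases (18.97%, interval 10.9% to 30.9%) and translation factor genes in 5 of 27 (18.5%, interval 8.18% to 36.7%). For ribosomal protein genes the count was 5 of 50 in replicate 1 and 4 of 48 in replicate 2, where the background was 3.30% and 4.54%. Each replicate list thus held fewer of these genes than the pair list. For translation factors the count was 3 of 24 in replicate 1 and 5 of 22 in replicate 2. No interval was computed for the replicate counts, so the excess over the background rests on the pair list. The gene lists were chosen with earlier results of these data known.

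The ribosomal protein peaks were of modest strength. RpL23A had a summit 93 bp upstream with signals of 52.4 in replicate 1 and 52.6 in replicate 2. RpS29 had a summit 25 bp upstream with 35.7 and 52.2, and was listed in replicate 2 only. RpL27A had one 127 bp upstream with 37.3 and 34.7, and was listed in replicate 1 only. The 11 pair signals lay between 50.1 and 96.7, most of them under the median of 85.7 over all single-promoter peaks. Among translation factors, eIF6 stood apart at 668.6, while eEF1gamma, a subunit of a translation elongation factor complex, had 108.7 and eIF3c, an initiation factor subunit, had 107.8. Mitochondrial ribosomal protein genes had 1 of 21 (4.76%), mRpL41. Head-to-head peaks were found at 15 cytoplasmic and 10 mitochondrial ribosomal protein genes and at 2 translation factor genes. The genes of these lists with a head-to-head candidate were not counted, so these numbers give no share to set against a background.

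Sense organs are a known place of Poxn function. Of 19 sense organ and neural genes with a candidate, 2 had a peak (10.5%, interval 2.94% to 31.4%, which includes the background of 5.18%). They were elav and numb, which encodes an inhibitor of Notch signalling in dividing sense organ precursors, with a summit 212 bp upstream and signals of 81.3 in replicate 1 and 89.0 in replicate 2. Chemoreceptor and odorant-binding protein genes had none of 166, which by the limit of 3 counts allows a share of up to 1.81%, and the count was 0 in both replicates. Cuticle protein genes had none of 98, which by the same limit allows up to 3.06%, and again none in either replicate.

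Patterning and tissue genes had single peaks. Of 36 homeobox patterning genes, 1 had a peak (2.78%). It was Dll, the homeobox gene of appendages, with a summit 126 bp upstream and signals of 52.4 in replicate 1 and 31.7 in replicate 2, listed in replicate 1 only. Of 20 muscle genes, 2 had one (10%, interval 2.79% to 30.1%, which includes the background of 5.18%). sls, which encodes the titin-like protein of the sarcomere, had 76.5 in replicate 1 and 44.1 in replicate 2, and tin, the homeobox gene of the heart, had 33.1 and 49.0. Of 14 chromatin and insulator genes, 2 had one, ph-p and Trl (14.3%, interval 4.01% to 39.9%, which also includes it). Trl, which encodes the GAGA factor, had a summit 120 bp downstream with 36.6 in replicate 1 and 88.8 in replicate 2.

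The remaining lists had 2 genes with a peak or fewer. Of 49 cytochrome P450 genes, 2 had a peak (4.08%). Cyp6a2 had signals of 25.4 and 28.2 and was in neither replicate list. The peak counted for Cyp6u1, at 59.2 and 73.8, had Ufsp1 as its nearest gene, 5 bp away. Of 9 TFIID subunit genes, Taf4 had one (11.1%, interval 1.99% to 43.5%), with 32.5 and 31.5 and in neither replicate list. No single-promoter peak was found at the genes of the proteasome (24 with a candidate), aminoacyl-tRNA synthetases (15), Mediator (10), RNA polymerases (11), splicing factors (15), DNA replication factors (21) or serine proteases (21). In the list of replicate 2, 1 of 9 RNA polymerase genes had one. With so few genes a count of 0 allows shares of 12.5% to 30% by the limit of 3 counts, which cannot be told from the background.

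**Figure D4:**
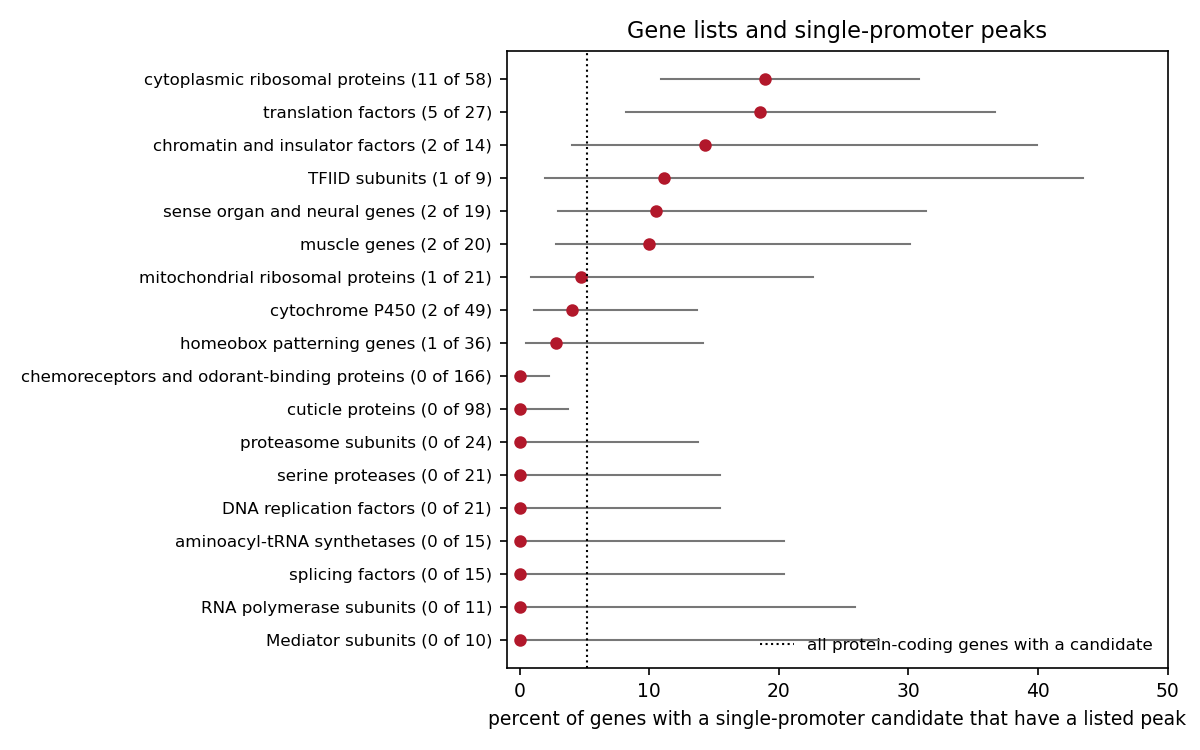
Percent of genes with a single-promoter candidate that have a listed single-promoter peak (horizontal axis) for 18 gene lists (rows, with counts). Lines are 95% Wilson intervals and the dotted line is the 5.18% of all protein-coding genes with a candidate. Ribosomal protein and translation factor genes, at 18.97% and 18.5%, are the lists whose whole interval lies above that line.

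Single-promoter windows were AT-rich. Within 100 bp on either side of the summit the median GC content was 34.8%, against 47.3% for single-promoter candidates outside the list, 44.3% for those of them upstream of the TSS and 38.8% for windows of the same length that end at a protein-coding TSS. It was 33.3% in replicate 1 and 34.8% in replicate 2. Head-to-head peaks were lower still, at 32.8%, and peaks over 2 kb away were at 36.8%. In the same 4 signal bins, from weak to strong, the median was 38.3%, 34.3%, 33.3% and 33.3%.

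**Figure D5:**
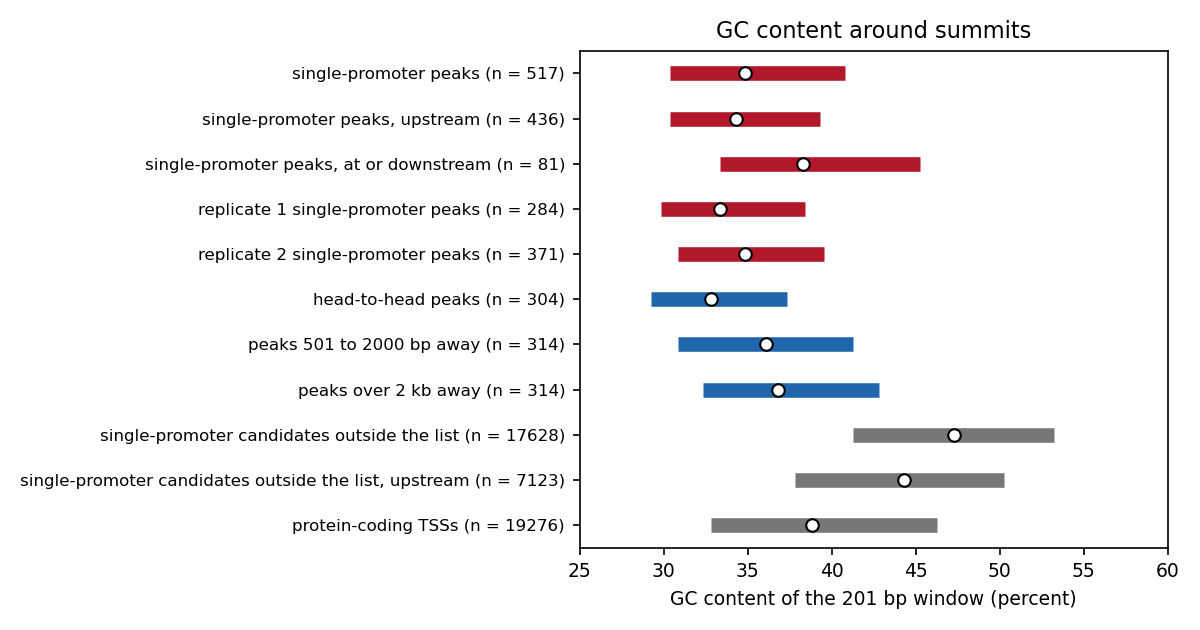
GC content of the window of 100 bp on either side of the summit, or of the same length up to the TSS (horizontal axis, percent) for each set (rows, with the number of windows). White circles are medians and bars the quartiles. The medians of all peak sets lie left of those of the candidates outside the list, with 34.8% for single-promoter peaks against 47.3% for single-promoter candidates outside the list.

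Words of A and T were frequent in these windows. TATAAA on either strand was in 186 of 517 single-promoter windows (35.98%, interval 31.96% to 40.2%), with 40.1% in replicate 1 and 36.7% in replicate 2. It was in 45.4% of head-to-head windows, 21.8% of upstream candidates outside the list and 33.6% of windows that end at a protein-coding TSS. TAATTA was in 16.05% of single-promoter windows, with 18.3% in both replicates, against 25.7% of head-to-head windows and 10.9% of upstream candidates. In the pair list both words were more frequent in head-to-head windows than in single-promoter ones.

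These differences were smaller between windows of like composition. Among windows of 25% to 35% GC, TATAAA was in 46.2% of 253 single-promoter windows (interval 40.2% to 52.4%) and in 45.6% of 1154 upstream candidates. TAATTA was in 21.7% and 20.5% of these windows. Among windows of 35% to 45% GC, TATAAA was in 31.1% of 180 single-promoter windows (interval 24.8% to 38.2%) and 24.8% of 2516 upstream candidates, and TAATTA in 10.6% and 12.8%. Among windows of 45% to 55% GC, TATAAA was in 3 of 56 single-promoter windows (5.36%, interval 1.84% to 14.6%) and 12.2% of 2631 upstream candidates. In the most AT-rich of these ranges, which holds 253 of the 517 peaks, the share of either word was thus close to that of candidates that were not listed, and the sign of the difference in TATAAA changed between ranges.

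TATAAA lay close to the summits. Of its 277 matches in single-promoter windows, 64.6% had their position within 50 bp of the summit, against 48.9% of 3520 matches in candidates outside the list. Matches of GAGAG, the GAGA element, lay within 50 bp in 34.0% of 212 cases, against 50.3% in candidates, and those of CAGCTG, an E-box that forms the core of Motif 5, in 29.8% of 47, against 51.8%. TAATTA lay within 50 bp in 56.4% of 94 matches, against 50.4% in candidates. TCAGT did so in 36.6% of 213, against 50.1%, and AGGNGGC, a core of the CTCF site, in 38.7% of 31, against 53.3%. The candidates here include those downstream of the TSS. Median GC content of single-promoter windows was 31.7% within 50 bp of the summit, against 34.8% within 100 bp. The part of base composition in these placements was not tested.

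Longer words of the core promoter were each in 10.1% of single-promoter windows or fewer. The DRE, TATCGATA, was in 15 windows (2.9%, interval 1.77% to 4.73%), against 6.58% of head-to-head windows and 1.43% of upstream candidates. Its share was higher, at 6.2%, in windows that end at a protein-coding TSS. Within GC ranges its share went both ways, with 1.58% of single-promoter windows and 3.21% of upstream candidates at 25% to 35% GC, and 8.93% of 56 and 0.532% at 45% to 55%. Motif 7, CATCNCTA, was in 20 windows (3.87%, interval 2.52% to 5.9%), against 9.21% of head-to-head windows (interval 6.45% to 13.0%) and 1.68% of upstream candidates. Its share in replicate lists was 2.82% and 5.39%, and in windows that end at a protein-coding TSS it was 3.26%. At 25% to 35% GC Motif 7 was in 3.56% of single-promoter windows and 2.25% of upstream candidates. At 35% to 45% the shares were 3.89% and 2.19%, and at 45% to 55% they were 5.36% and 1.33%. The intervals overlapped in each range. Motif 1, GGTCACAC, was in 1.16% of windows, against 2.63% and 1.04%, and in 3.33% of windows that end at a protein-coding TSS. Motif 6, GTATNTTT, was in 10.1% of single-promoter windows, 10.9% of head-to-head windows and 5.55% of upstream candidates, and also in 12.1% of peaks over 2 kb away. It was in 10.7% of windows that end at a protein-coding TSS. At 25% to 35% GC it was in 11.1% of single-promoter windows and 11.0% of upstream candidates. At 35% to 45% the shares were 11.1% and 6.88%, and at 45% to 55% they were 5.36% and 2.93%.

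For the remaining words, shares are given for single-promoter windows, head-to-head windows and upstream candidates in this order. GAGAG was in 22.6%, 11.8% and 25.9%. At 25% to 35% GC it was in 23.3% of single-promoter windows (interval 18.5% to 28.9%) and 13.3% of upstream candidates (interval 11.5% to 15.4%), and at 45% to 55% in 17.9% and 32.6%, so its order turned with composition. TCAGT was in 33.3%, 23.7% and 32.9%, and CAGCTG in 8.7%, 12.2% and 9.98%. AGGNGGC, a core of the CTCF site, was in 5.8%, 4.93% and 8.26%. At 35% to 45% GC it was in 11.1% of single-promoter windows and 5.88% of upstream candidates. At 25% to 35% the shares were 1.98% and 2.08%, and at 45% to 55% they were 7.14% and 10.9%, so its order also turned with composition. CTCTTTT, a pyrimidine-rich initiator, was in 6.19%, 4.61% and 5.32%. CGATA, which overlaps the DRE, was in 26.5%, 36.8% and 24.1%, and in 36.6% of windows that end at a protein-coding TSS.

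The word closest to a paired-domain site was not frequent. GTCACGC, a core known from Pax proteins, was in 5 of 517 single-promoter windows (0.967%, interval 0.414% to 2.24%), 2.3% of head-to-head windows, 1.18% of upstream candidates and 0.97% of windows that end at a protein-coding TSS. The early embryonic Zelda site CAGGTAG was in 1.16% of single-promoter windows and 1.39% of upstream candidates, and the downstream promoter element AGACGTG in 0.774% and 1.01%. Absence of these letters in a window says nothing about the factors.

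The limit of 500 bp cut through a continuous range of distances. Just inside it lay lncRNA:CR46113 at 498 bp with a signal of 47.8, the ph-p peak at 496 bp with 612.0 and Jheh1, a juvenile hormone epoxide hydrolase gene, at 495 bp with 94.3. Just outside lay peaks at CG5065 at 502 bp with 63.7, CG3348 at 503 bp with 98.99 and a second one at lncRNA:CR44619 at 505 bp with 207.1. At Poxn itself there was a single-promoter candidate 146 bp upstream of the TSS, at 2R 15835049 to 15835352, with a signal of 6.23, which was not in the list. The nearest listed peak was at tun, 12921 bp away, with a signal of 56.4.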

How the data were processed

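Peak lists on dm6 were used as deposited, for the pair of replicates (a main and a conservative version) and for each replicate. Per the labels, they come from ChIP-seq of whole embryos in 2 biological replicates. The signal value per peak and the −log10 of its irreproducible discovery rate (IDR) are the authors' own deposited values, and no peak of the main list was under 2, an IDR of 0.01. Not given in the sources used here are aligner, peak caller, scaling of signal, read depth and the lists that IDR compared. Both replicates also drew on 1 file in common, per the deposited notes.

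Summits were classed against 24111 TSS positions of an Ensembl annotation of BDGP6, whose arm lengths matched the RefSeq assembly used for sequence. The nearest TSS gave position and gene type. Each replicate's value for a peak is the highest signal among candidates of that replicate's ranked list whose summit lay within the peak. A weak peak that overlaps a stronger one can thus carry the same replicate value as the stronger one. Overlaps needed 1 bp. Words were sought on either strand within 100 bp on each side of a summit. Shares have Wilson intervals, and no test was run over peaks, genes or windows.

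The members, the 18 gene lists and the 15 words were chosen with earlier results of these data known. Named genes are the 15 strongest peaks, the 6 strongest downstream, the 3 strongest per arrangement, the 2 strongest per noncoding gene type, up to 3 per gene list, 3 on either side of the 500 bp limit and Poxn. Genes named for a second peak were chosen after their values were seen. The homeobox list matched 43 of 45 symbols, the sense organ list 22 of 23, the chromatin list 26 of 27 and the replication list 31 of 40. Alternatives were the conservative list, each replicate, stricter IDR, the upper part of the signal range, other TSS windows, protein-coding TSSs, another overlap, shorter windows, the nearest TSS and, added after seeing the data, leaving out peaks that overlap a stronger one. Classification, word search and overlap were tested on simulated data in 3 checks, and all 3 passed. Python 3.11.15 with numpy 2.4.6, pandas 2.3.3 and scipy 1.17.1 was used.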

Additional observations from a re-analysis of the deposited data

How the results depend on the processing

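Neither the median position nor the median signal difference to head-to-head peaks changed sign under an alternative, whereas the order of upstream and downstream median signal turned round in the replicate lists. From the lists of single replicates, the number of single-promoter peaks was 284 to 371, against 517. The share upstream was then 86.5% to 89.1%, the median position -175 to -162 bp, the median signal difference to head-to-head peaks -4.27 to -3.4 and the share of candidates listed 2.03% to 2.82%. At an IDR of 0.001 or lower, 225 peaks were left, 88% of them upstream and 92.9% in both replicate lists, with a signal difference of -8.1 and 1.24% of candidates listed. Among peaks at or above the list's median signal, 274 were left, with 88.3% upstream, a median position of -171 bp, a signal difference of -8.13, 79.9% in both replicate lists and 1.51% of candidates listed. With a TSS window of 250 bp the median position was -121 bp, the signal difference -17.7 and the share of candidates listed 4.25%. With 1000 bp, 78.2% were upstream, the median position was -177 bp, the signal difference -5.98 and 2.02% of candidates were listed. With protein-coding TSSs only, 86.3% were upstream and the signal difference was -11.1. Without peaks that overlap a stronger peak, an alternative chosen after seeing the data, the signal difference was -7.82. The width of the TSS window sets both which summits are kept and which count as head-to-head. What caused the changes under each alternative was not tested. The other 25 of 53 alternative values lay within the spread of the replicates, the interval or 1.5 times the count. For words and GC content, 56 of 96 values moved by more than the small spread between replicates, and for gene lists 12 of 90 counts did so by more than 1.5 times. Among them, ribosomal protein genes with a peak were 4 to 5 in single replicates, against 11. No paired analysis was possible because there was 1 group of 2 replicates. The number of peaks depends on read depth, which is unknown, and with 2 replicates and no control analysed here no peak was tested against background.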
